A study of Homo sapiens with 18 samples.

Results

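The regions described here are the rows of the deposited methylation table that lie in the zinc finger gene clusters of human chromosome 19, and they were chosen by position alone. A region was a member if it overlapped 19.8 to 24.6 Mb, called the 19p12 window below, or 52 to 58 Mb, called the 19q13 window, on build hg19. The rule found 1125 of 198884 regions, 355 in 19p12 and 770 in 19q13, and 6802 further regions lay on the rest of the chromosome. The table came from MeDIP-seq, which sequences DNA fragments captured with an antibody against 5-methylcytosine. All 18 samples were K562 cells, an established human line from erythroid leukaemia, and each held a B2M:tdTomato transgene, the controls included. In each assay, MeDIP-seq and RNA-seq, 3 libraries were from untreated cells, 3 from cells silenced with TALE proteins and 3 from cells silenced with dCas9. Both are proteins that can be directed to a chosen DNA sequence, and here they were aimed at the B2M promoter, which lies on another chromosome. Silenced cells had received plasmids for a mixture of repressors, each called an ATR in the labels and 1 of them D3A-based, and the dCas9 cells also a guide RNA plasmid. Whether the cells were a clone, and how long after treatment they were collected, is not given in the sources used here. The labels do not say that replicates were separate cultures, so the spread between them may be technical.

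C2H2 zinc finger genes form tandem arrays on chromosome 19, and most of their proteins pair a KRAB domain with a run of fingers that reads DNA. KRAB recruits the co-repressor TRIM28, with which histone H3 lysine 9 methylation and DNA methylation are laid down, mainly on transposable elements. The last exon of such a gene codes for all fingers, joined by a conserved linker of the amino acids TGEKP, and these exons are known to carry heterochromatin marks in K562 and other cells. The 19q13 window also holds the leukocyte receptor genes, with the KIR and LILR families, NLRP genes of innate immunity, a large primate microRNA cluster and the imprinted gene PEG3.

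Sequences of 3 members are shown because the results below turn on them, each as the plus strand of hg19. The first lies between genes and had the highest level in 19q13. It has every CpG, the dinucleotide in which cytosine is methylated, in capitals.
Between genes, chr19:55959739-55960038: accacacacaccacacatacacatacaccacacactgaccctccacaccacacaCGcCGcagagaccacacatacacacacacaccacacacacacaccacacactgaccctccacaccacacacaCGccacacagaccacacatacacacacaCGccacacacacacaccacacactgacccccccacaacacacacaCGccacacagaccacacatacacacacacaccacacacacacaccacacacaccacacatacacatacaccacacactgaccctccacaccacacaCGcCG

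The stretch between genes holds 7 CpG in 300 bases, within a run of CA-rich units that come back again and again. It was chosen as the stretch of its member with most CpG, and the whole member holds 18 CpG in 1150 bases. Of the 12-base words of that whole member, 82.2% occurred more than once within it. Annotated repeat elements were not used here. In the next pair, the capitals mark matches to the DNA of the TGEKP linker, searched on both strands. The ZNF543 stretch, from the last exon, reads along the gene. ZNF14 lies on the minus strand, so its linkers appear as the reverse complement.
ZNF543 exon 4 of 4, chr19:57839964-57840263: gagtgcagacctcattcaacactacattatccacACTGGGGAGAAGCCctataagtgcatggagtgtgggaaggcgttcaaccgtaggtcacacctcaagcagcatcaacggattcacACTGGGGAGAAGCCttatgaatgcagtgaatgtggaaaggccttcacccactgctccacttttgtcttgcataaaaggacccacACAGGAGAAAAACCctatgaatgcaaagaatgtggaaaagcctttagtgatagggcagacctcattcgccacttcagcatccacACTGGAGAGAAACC
ZNF14 exon 4 of 4, chr19:19822341-19822638: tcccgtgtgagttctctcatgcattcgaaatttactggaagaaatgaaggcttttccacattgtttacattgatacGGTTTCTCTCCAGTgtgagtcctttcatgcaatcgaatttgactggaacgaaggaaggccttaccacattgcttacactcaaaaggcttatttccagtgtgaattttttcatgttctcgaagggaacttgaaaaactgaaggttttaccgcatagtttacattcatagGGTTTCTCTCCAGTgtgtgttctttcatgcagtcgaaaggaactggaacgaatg

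The ZNF543 stretch holds 4 linkers and 4 CpG in 300 bases. It was chosen as the stretch of its member with most linkers, outside annotated untranslated sequence. The member it comes from spans chr19:57839687-57842822 and holds 8 linkers, the highest number in either window. Its counts were 116, 91 and 102 in untreated replicates 1, 2 and 3, 85, 79 and 114 in the TALE replicates, and 92, 123 and 85 in the dCas9 replicates. It overlapped a peak in all 9 libraries. The ZNF14 member is shown whole and holds 2 linkers and 9 CpG in 298 bases, but it overlapped a peak in 1 library only. Its counts were 20, 13 and 12 in untreated cells, 9, 8 and 9 in TALE cells, and 8, 12 and 3 in dCas9 cells.

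Depth and identity of the libraries were examined first. MeDIP counts over all regions ran from 2529729 to 4492751 per library, of which 2959 to 5593 fell on 19p12 members and 15116 to 25894 on 19q13 members. RNA counts ran from 8460076 to 12050554 per library. All 8 K562 markers listed, among them the fetal globins HBG1 and HBG2 and the erythroid factor GATA1, were tested, at 51.2 to 3941 CPM (counts scaled to a common library total) in untreated cells. Of 6 markers of other blood cells, 1 passed the filter on low counts. The transgene's entry, B2M_tomato, fell by 4.59 on the log2 scale in the silenced groups (edgeR adjusted p 2.67e-14). Of 677 members that passed the filter on low counts, 123 lay in 19p12 and 554 in 19q13, which is 34.6% and 71.9% of the members there. The rest of chromosome 19 had 80.5%.

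The 19p12 window was poor in methylated regions, and the 19q13 window was near the rest of the chromosome. There were 74.7 regions per sequenced Mb in 19p12 and 128 in 19q13. The rest of the short arm had 178 and the rest of the long arm 130. Regions covered 2.73% of the bases of 19p12, 6.43% of 19q13 and 7.25% of the rest of chromosome 19. The sequence itself differed in the same order, with 0.984 CpG per 100 bases in 19p12, 1.77 in 19q13 and 2.01 in the rest. Of all CpG of 19p12, 7.53% lay in a member, against 11.0% in 19q13 and 11.1% in the rest, so the share of CpG covered was lower in 19p12 too. Within members the CpG content was closer, at 2.71, 3.03 and 3.08 per 100 bases. In both windows the members were thus richer in CpG than the sequence around them.

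**Figure D1:**
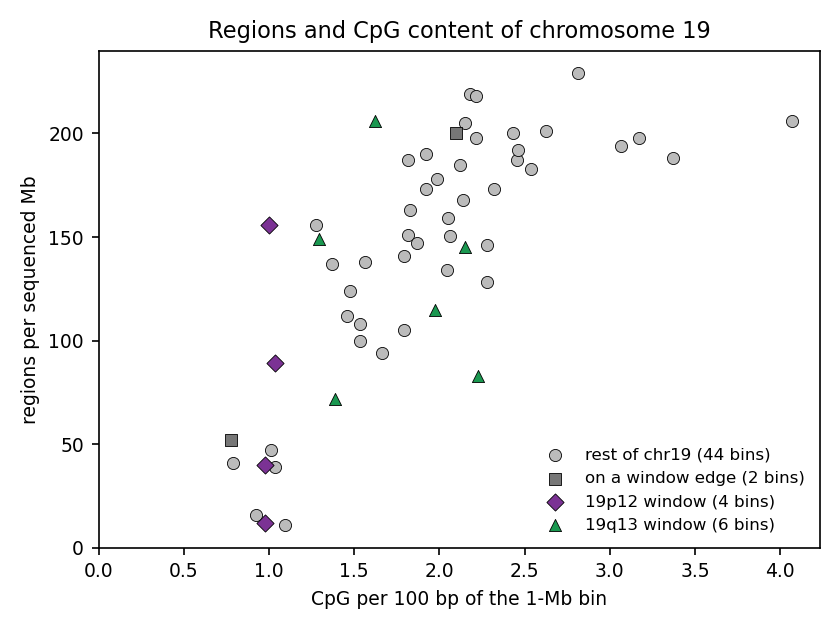
Regions per sequenced Mb (vertical axis) against CpG per 100 bases (horizontal axis) for 1-Mb bins of chromosome 19, each point a bin. The 4 bins within 19p12 hold 12 to 156 regions per Mb at nearly the same CpG content, next to bins of the rest with few CpG and few regions, and the 6 bins of 19q13 hold 72 to 206.

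Members were very unevenly spread within 19p12. The 1-Mb bins that lie wholly in it held 38, 156, 12 and 89 members from 20 to 24 Mb, although their CpG content differed only from 0.974 to 1.03 per 100 bases. The stretch of 532 kb from 22236155 to 22768179 held 0 members and the genes ZNF676, ZNF729 and ZNF98, and it begins within ZNF257, which has 1 member, at its start. The next stretch, of 388 kb to 23156191, held 0 members and the genes ZNF492, ZNF99 and ZNF723, and 1 member of 291 bases, with 2 counts in dCas9 replicate 2 and 0 in every other library, parted both stretches. In 19q13 the longest stretch without a member, 221 kb from 56362999 to 56583555, held NLRP13, NLRP8 and NLRP5 and the end of NLRP4, which are germ-cell genes of the NLRP family. NLRP4 has 1 member before that stretch. The next, 182 kb from 55211653 to 55393933, held all 7 annotated KIR genes, receptors of natural killer cells, and the first part of FCAR, whose remaining part holds 4 members. A site without a peak in any library is not in the table, so these stretches had no peak that led to a region, which is not the same as no methylation. How reads that align to several places were treated is not given in the sources used here. In the stretch with the KIR genes 49.2% of 20-base words occur more than once on the chromosome, copies within the stretch included. In all of 19q13 this share was 29.6%. In the 532 kb stretch the share was 38.6%, against 38.8% in all of 19p12, and in the NLRP stretch 26.0%.

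The windows had a like median length, but long members were fewer in 19p12. The median length was 287 bases in 19p12, from 3 to 3380, and 291 bases in 19q13, from 9 to 5151. All 1125 members were exactly the bases common to every peak that overlapped them in the 9 lists, so a length is that of the shared part and not of a methylated domain. That is how members of 3 and 9 bases arise, in introns of ZNF43 and of ZNF28 and ZNF468, and the highest levels per kb are ranked below only among members of at least 300 bases. The longest members lay in introns, of ZNF254 in 19p12 (chr19:24225167-24228546) and of ZNF787 in 19q13 (chr19:56615964-56621114). Members over 1 kb made up 6.48% in 19p12, 13.8% in 19q13 and 12.3% in the rest of chromosome 19. At the edges, the first member of 19p12 lay at 19801357-19801668, at 22.6 CPM per kb, and the region just outside at 19796041-19796062. The last lay at 24336811-24337112, at 5.89 CPM per kb, and the next region at 27731843-27734486, across the centromere, at 25.4. In 19q13 the first member, at 52005483-52005773, had 5.71 CPM per kb and the region before it, at 51998434-51999711, had 14.3. Its last member, at 57969517-57970410, had 4.21, and the next region, at 58001765-58002011, had 19.4.

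Peaks recurred across libraries less often in 19p12. A peak was present in all 9 libraries at 61 members of 19p12 (17.2%) and at 265 of 19q13 (34.4%), and in 1 library only at 75 (21.1%) and 90 (11.7%). Levels and peaks come from the same libraries, though not always from the same reads. The 19p12 members at chr19:21904960-21905246 and chr19:23317698-23317748 overlapped a peak in 1 and in 2 libraries, but both had 0 counts in all 9. In 19p12 the median level was higher with each further library with a peak, from 4.08 CPM per kb with 1 library to 15.8 with 8, and it was highest with 9. In 19q13 it was 6.36 with 1 library, and about level at the top, with 23.3, 23.2 and 23.1 for 7, 8 and 9 libraries. Members of all lengths entered these medians. For 7, 8 and 9 libraries in 19q13 the median length was 213.5, 261 and 500 bases. The median CPM per member, not divided by length, was 3.85, 5.74 and 12.8. In each library's own peak list there were 33.1 ± 5.67 peaks per Mb in 19p12 and 71.0 ± 5.59 in 19q13, against 83.3 ± 6.08 in the rest of chromosome 19 (mean ± SD, n = 9 libraries). The ratio to the rest was 0.393 for 19p12 and 0.851 for 19q13, and it was below 1 in 9 of 9 libraries for both. The exact two-sided sign permutation test gave p = 0.00391 for each, the smallest that 9 libraries allow. The authors' −log10 q of at least 5 left 6 to 32 peaks of 19p12 and 10 to 31 of 19q13 per library. With it, the ratio of 19p12 to the rest was 0.730 and the exact sign permutation p 0.0625. That test covers the spread between libraries, and other stretches of the genome may differ as much.

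Counts per length of region were also lower in 19p12, but the enrichment of its peaks was not lower than in 19q13. Peak enrichment in the rest of chromosome 19 was not summarized. The authors' median fold enrichment per peak ran from 2.25 to 2.57 over libraries in 19p12 and from 2.01 to 2.26 in 19q13. In each library it was higher in 19p12. Summed counts per kb of region, scaled as CPM, were 8.96 ± 0.452 in 19p12, with libraries from 8.40 to 9.59, and 15.5 ± 0.436 in 19q13, from 14.9 to 16.2. The rest of chromosome 19 had 16.9 ± 0.172, from 16.6 to 17.1 (mean ± SD, n = 9 libraries). Every library of 19p12 lay below every library of the other sets, and every library of 19q13 lay below the rest. The ratio to the rest was 0.530 for 19p12 and 0.918 for 19q13, lower in 9 of 9 libraries, with an exact sign permutation p of 0.00391 for each. As with the peaks, this test covers only the spread between libraries, which may be technical. The MeDIP libraries were pooled before capture and may not be independent, which bears on both tests. Per 100 CpG in place of per kb, the levels were 33.1 ± 1.67, 51.1 ± 1.44 and 54.9 ± 0.558 (n = 9), with ratios of 0.602 and 0.932. Against all other regions of chromosomes 1 to 22 and X, 19p12 stood at 0.724 and 19q13 at 1.25, so the place of 19q13 below the reference holds within chromosome 19 only.

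**Figure D2:**
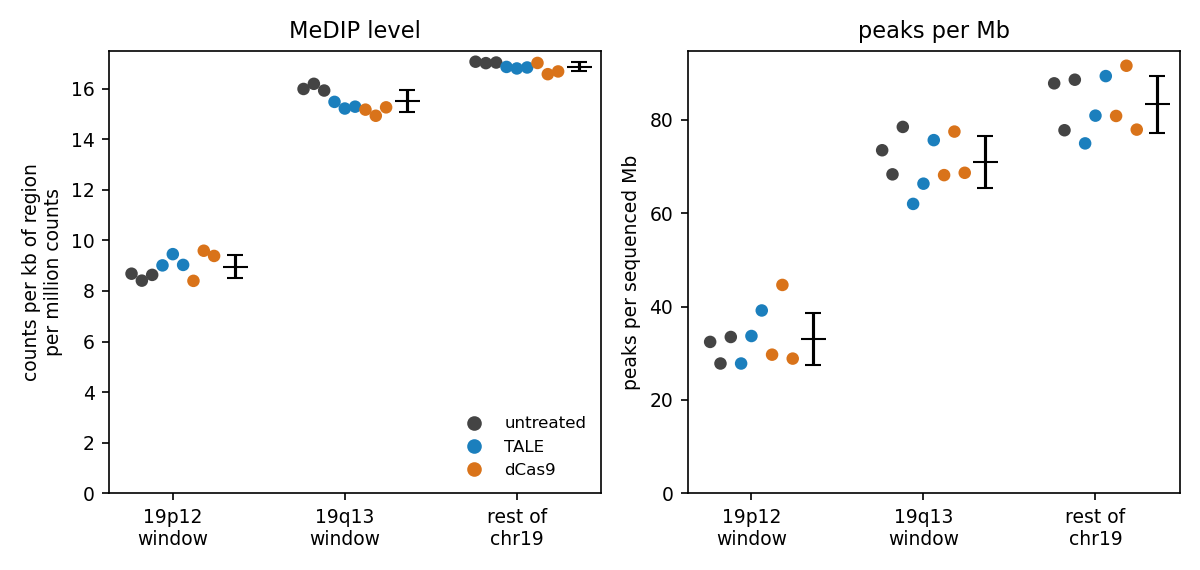
MeDIP counts per kb of region, scaled as CPM (left), and peaks per sequenced Mb (right) for 19p12, 19q13 and the rest of chromosome 19. Each point is a library, coloured by group, and the bars give the mean ± SD over 9 libraries: in both panels 19p12 lies lowest in every library.

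Of the 5 highest members of 19p12, 3 lay in introns of zinc finger genes. A member in an intron of ZNF506 (chr19:19907212-19907617) reached 38.6 CPM per kb. Its counts were 44, 36 and 52 in untreated replicates 1, 2 and 3, 48, 30 and 55 in the TALE replicates, and 26, 76 and 39 in the dCas9 replicates, so the groups overlapped. Members in introns of ZNF714 (chr19:21278260-21278660) and ZNF431 (chr19:21327964-21328317) had 28.8 and 29.2 CPM per kb. A member between genes (chr19:21473347-21473766) had 32.7, and 1 in an intron of the gene ENSG00000268555 (chr19:21768354-21768917) had 29.4. All 5 overlapped a peak in 9 libraries and held 14 to 24 CpG. Over members of at least 300 bases, the median was 8.29 CPM per kb in 19p12 (n = 122), 16.9 in 19q13 (n = 323) and 19.3 in the rest of chromosome 19 (n = 2927).

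The highest members of 19q13 were a neighbouring pair between 55 and 56 Mb. The member between genes shown above (chr19:55959446-55960595) reached 81.3 CPM per kb with only 18 CpG in 1150 bases. Its counts were 310, 213 and 327 in untreated cells, 217, 259 and 356 in TALE cells, and 235, 319 and 182 in dCas9 cells, again with overlap between groups. A member in an intron of SHISA7 (chr19:55945619-55946789) had 68.7 CPM per kb with 11 CpG in 1171 bases. These were the highest levels of 19q13 at a CpG content below its typical member, and both were internally repeated, with 82.2% and 86.7% of 12-base words found more than once. Over 19q13, 7 of 323 members of at least 300 bases had 50% or more of such words, with a median of 18.7 CPM per kb against 16.9 for the others. In 19p12 it was 0 of 122. The other high members of 19q13 lay in an intron of PTPRH (chr19:55699572-55699900), at 56.7, and between genes (chr19:55662428-55662753 and chr19:53239580-53240128), at 56.6 and 42.2. In these 3, 0% to 12.3% of 12-base words were repeated.

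Sequence found more than once on the chromosome was common in members. Words of 20 bases that occur more than once on chromosome 19, on either strand, were counted, copies within the same member included. In members of at least 300 bases they made up 56.3% of the sequence in 19p12 and 42.9% in 19q13. In the windows as wholes the shares were 38.8% and 29.6%. In the rest of chromosome 19 the shares were 46.9% in regions and 27.7% overall. Members of 19p12 with 50% or more of such words (97 of 122) had a median of 8.63 CPM per kb, and the other 25 had 4.37. In 19q13 the medians were 18.5 and 15.2, and in the rest of the chromosome 23.2 and 15.4, so the same order held in all 3 sets. Whether this reflects methylation or the mapping of reads was not tested.

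Introns were the most common position of members, and zinc finger genes the most common gene family. In 19p12, 230 members were intronic, 11 touched an exon, 15 lay within 1 kb of a protein-coding transcript start, 32 in other annotated genes and 67 outside genes. In 19q13 these numbers were 448, 111, 39, 45 and 127. Zinc finger genes held or bordered 220 members of 19p12 and 379 of 19q13. Of the other families of 19q13, NLRP genes had 28 members, leukocyte receptor genes 20, SIGLEC genes, receptors for sialic acid, 10, formyl peptide receptor genes 8 and vomeronasal receptor genes 1. The median level in 19q13 was 24.5 CPM per kb at NLRP genes, 21.9 at leukocyte receptor genes and 18.7 at zinc finger genes.

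The coding arrays of fingers were rarely covered in 19p12. Of 392 matches to the linker codons in 19p12, 3 lay in a member (0.765%), against 28 of 550 in 19q13 (5.09%) and 55 of 984 in the rest of chromosome 19 (5.59%). A member overlapped the last exon of 6 of 36 zinc finger genes in 19p12 (16.7%) and of 30 of 74 in 19q13 (40.5%). For the 155 zinc finger genes elsewhere on chromosome 19 the share was 35.5%. The last exon also includes untranslated sequence, so such a member need not lie on fingers. The ZNF431 member at chr19:21368806-21370542, for example, touched no coding sequence. In 19p12 8 members overlapped such an exon and 2 members held a linker, and in 19q13 44 and 11. The members with most linkers were those of ZNF543 and ZNF320 in 19q13 and of ZNF14 and ZNF675 in 19p12. The ZNF320 member (chr19:53383535-53384616) held 4 linkers and had 15, 18 and 29 counts in untreated cells, 34, 14 and 18 in TALE cells, and 24, 29 and 9 in dCas9 cells. The ZNF675 member (chr19:23836429-23836651) held 1 linker and had 0 to 7 counts in every library. A linker was present in 0.563% of regions in 19p12, 1.43% in 19q13, 0.338% in the rest of chromosome 19 and 0.0651% of all regions whose sequence was at hand. Regions of different lengths enter these shares.

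Members at transcript starts of zinc finger genes were counted next, without a test. A member lay within 1 kb of the start of 14 of 36 zinc finger genes in 19p12 (38.9%) and 26 of 74 in 19q13 (35.1%), against 55 of 155 in the rest of chromosome 19 (35.5%). Over all 1246 protein-coding genes outside the windows it was 21.0%. In the RNA libraries, zinc finger genes of 19p12 with a member at the start were mostly detected, with 1 of 14 under 1 CPM in untreated cells. Of those without, 11 of 22 were under 1 CPM. Per kb of exon, the median was 3.02 CPM with a member and 0.288 without, and over the 9 libraries the medians ran from 2.63 to 3.44 and from 0.211 to 0.403. In 19q13 the medians were 2.63 (n = 26) and 1.83 (n = 48), with 5 and 14 genes under 1 CPM. The range of single genes overlapped between both sets in each window, from 0.0836 to 8.78 with a member and from 0 to 12.1 without in 19p12. The position of the member was measured against 1 transcript per gene, so other starts of a gene may lie elsewhere.

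**Figure D3:**
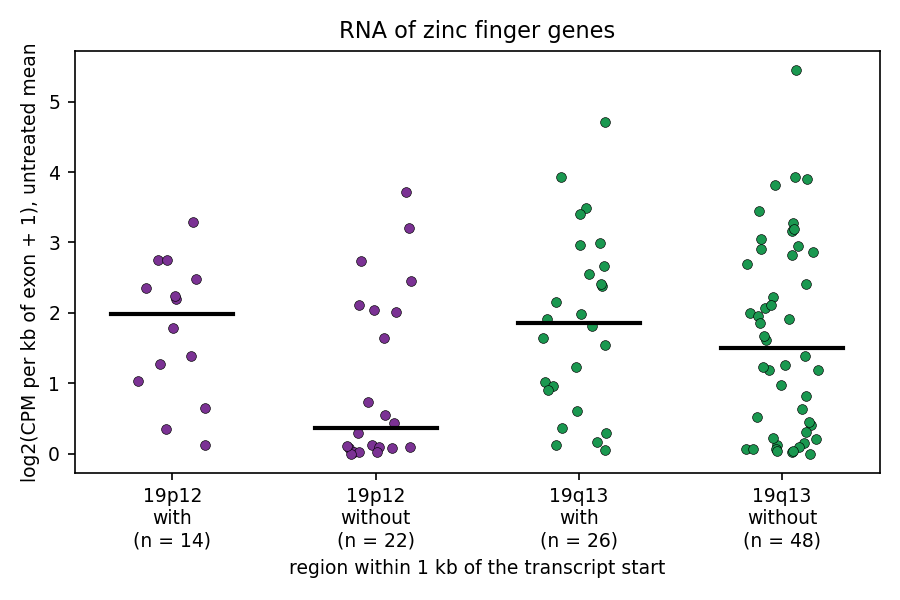
RNA level of zinc finger genes in untreated cells, as log2(CPM per kb of exon + 1), by window and by whether a region lies within 1 kb of the transcript start. Each point is a gene and bars are medians: the median is lowest for the 22 genes of 19p12 without such a region, and the ranges of all sets overlap.

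In 19p12 the genes that held most members were ZNF254 with 21 members, ENSG00000269237 with 17 and ZNF431 with 16. In 19q13 they were ZSCAN5A with 26, ZNF83 with 22 and NLRP2, a member of the NLRP family with a role in early embryos, with 20. RNA of ZNF254 was at 35.9 ± 2.62 CPM in untreated cells, 37.7 ± 1.58 in TALE cells and 40.0 ± 2.67 in dCas9 cells (mean ± SD, n = 3 each). ZSCAN5A was at 6.84 ± 1.22, 5.62 ± 1.20 and 5.79 ± 1.25 CPM in untreated, TALE and dCas9 cells (n = 3 each). ZNF83 was at 63.0 ± 3.33, 57.8 ± 6.86 and 60.7 ± 4.50 CPM (n = 3 each), and NLRP2 at 32.3 ± 0.520, 34.1 ± 5.30 and 33.9 ± 2.80 (n = 3 each). None of the 5 genes with RNA data here, these 4 and ZNF431, was called in silenced against untreated cells (edgeR adjusted p from 0.891 to 0.979).

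The imprinted, microRNA and receptor genes of 19q13 had few members. No member overlapped the start of PEG3, an imprinted gene whose promoter is methylated on the maternal allele, or of ZIM2, which shares it. The nearest, of 52 bases at chr19:57350892-57350943, lay 1151 bases into the gene and had 1 to 5 counts per library. PEG3 RNA had 0 to 3 counts per library. In the 122 kb from MIR512-1 to MIR373, the primate microRNA cluster, there were 9 members, and 5 of them had a peak in 1 or 2 libraries only. The nearest member to the start of MIR512-1 was 27980 bases away, and to that of MIR373 1764 bases. The starts of all 7 KIR genes were 24295 to 78869 bases from the nearest member. Of 23 leukocyte receptor genes in all, 7 held a member and 1 had 1 at its start, and of 9 NLRP genes 5 held a member and 0 had 1 at the start.

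Single members were then compared between groups, to ask whether silencing aimed at B2M was accompanied by a change in these clusters. No member was called at an adjusted p under 0.05 in any contrast, by edgeR's quasi-likelihood test fitted on all 105652 regions that passed the filter. Of all regions 0% were called between TALE and untreated cells, 0.000947% between dCas9 and untreated cells, 0.000947% between both silencing systems, and 0% between the mean of both silenced groups and untreated cells. DESeq2 also called 0 members in each contrast. At an unadjusted p under 0.05 the edgeR counts were 45, 33, 33 and 40 of 677 members, or 6.65%, 4.87%, 4.87% and 5.91%. Over all regions these shares were 4.74%, 4.69%, 4.47% and 4.88%, so the members stood near the background. Members with silenced libraries all above untreated numbered 6 of 677 (0.886%), with a background of 1.27%, and members all below numbered 16 (2.36%), with a background of 1.18%. All 16 lay in 19q13, where they made up 2.89% of the 554 tested members. In the rest of the long arm 50 of 2511 tested regions (1.99%) lay below in the same way.

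The lowest p belonged to the NDUFA3 member (chr19:54607292-54607761) of 19q13, in an intron of a gene for a subunit of mitochondrial complex I. Its counts were 49, 58 and 48 in untreated replicates, 23, 22 and 33 in TALE replicates, and 27, 42 and 25 in dCas9 replicates. Scaled to depth these were 15.1, 24.6 and 14.9 CPM in untreated cells, against 8.64 to 10.6 in TALE cells and 10.7 to 10.9 in dCas9 cells. All 3 untreated libraries lay above all 6 silenced ones, and untreated replicate 2 was highest. Silenced against untreated cells gave a log2 fold change of −0.83, SE 0.225, with an unadjusted p of 0.000394 and an edgeR adjusted p of 0.897. RNA of NDUFA3 had a log2 fold change of 0.01 (SE 0.131, adjusted p 0.999).

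The other members with low p lay at zinc finger genes and at ISOC2. The ZNF766 member (chr19:52771985-52772319), 521 bases from the transcript start of that gene, had 36, 24 and 33 counts in untreated cells, 10, 9 and 38 in TALE cells, and 13, 16 and 14 in dCas9 cells. TALE replicate 3 reached 10.4 CPM, within the untreated range of 10.2 to 11.1, and the other 5 silenced libraries lay between 3.53 and 6.04. Silenced cells stood at a log2 fold change of −0.87 with SE 0.293, and edgeR's adjusted p was 1.00. In the opposite direction, the ZNF675 member (chr19:23840244-23840573), intronic and in 19p12, had 14, 4 and 10 counts in untreated cells, 11, 17 and 25 in TALE cells, and 15, 20 and 19 in dCas9 cells. In CPM the untreated libraries ran from 1.70 to 4.30 and the silenced ones from 5.08 to 8.20, with no overlap, at a log2 fold change of 1.00 (SE 0.376, adjusted p 1.00). A member in an intron of ISOC2 (chr19:55968633-55968931) had 7.47 to 11.7 CPM in untreated and 12.5 to 16.2 CPM in silenced cells, at 0.56 (SE 0.239, adjusted p 1.00). These 4 members had 4 to 58 counts per library.

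**Figure D4:**
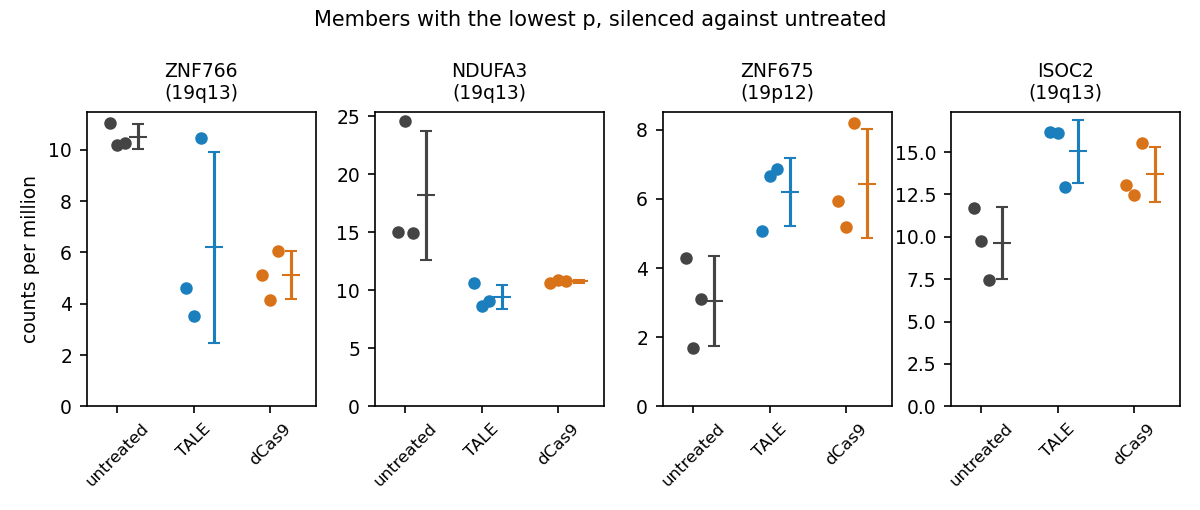
CPM in each library (points) with mean ± SD (bars, n = 3) at the members with the lowest unadjusted p in each direction for silenced against untreated cells, named by gene. The NDUFA3 member lies lower in all 6 silenced libraries, ZNF766 in 5 of 6, and ZNF675 and ISOC2 higher in 6 of 6; none was called.

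Members named by the other contrasts were not called either. For TALE against untreated the 2 with the lowest p upward were in introns of ZNF43 (chr19:22033876-22034172) and ZNF254 (chr19:24300366-24300753), both in 19p12. For dCas9 against untreated they were in introns of ZNF83 (chr19:53187330-53187642) and ZSCAN5A (chr19:56758506-56759351). A member between genes (chr19:56699842-56700168) had 29, 17 and 25 counts in untreated cells, 9, 7 and 10 in TALE cells, and 20, 41 and 10 in dCas9 cells, so it was low in TALE libraries and overlapped between dCas9 and untreated. For TALE against dCas9 the lowest p in each direction came from TMC4 (chr19:54672731-54673433), over coding exon 3 of 15, from a member between genes described next, from ZNF845 (chr19:53839286-53839594) and from the member at 56699842 again. The member at chr19:57846740-57847009 had 10, 16 and 11 counts in untreated cells, 16, 11 and 20 in TALE cells, and 0, 7 and 5 in dCas9 cells. All dCas9 libraries, at 0 to 2.16 CPM, lay below all TALE libraries, at 4.32 to 7.39, and below all untreated ones, at 3.07 to 6.79. For TALE against dCas9 its log2 fold change was 2.03 with SE 0.586, at an unadjusted p of 0.000839 and an edgeR adjusted p of 1.00. TALE and dCas9 were compared with the same untreated libraries, so their values are not independent.

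Summed over a window, the groups stood apart in 19q13 by a small amount, and in the rest of that chromosome arm by about as much. The share of a library's region counts that fell on 19q13 was 0.617%, 0.625% and 0.615% in untreated replicates 1, 2 and 3. It was 0.598%, 0.587% and 0.590% in TALE replicates and 0.586%, 0.576% and 0.589% in dCas9 replicates. All 6 silenced libraries lay below all untreated ones, and the silenced mean was lower by 5.06% (0.588% against 0.619%). Of 212 tiles of 6 Mb across chromosomes 1 to 22 and X, 6.13% showed such a separation downward, 5 of them among the 9 tiles of chromosome 19. The rest of the long arm had 2.62% to 2.66% in untreated and 2.48% to 2.55% in silenced libraries, again with no overlap, and was lower by 4.15%. The ratio of 19q13 to the rest of its arm averaged 0.235 ± 0.000435 over untreated, 0.234 ± 0.00216 over TALE and 0.232 ± 0.00150 over dCas9 libraries (mean ± SD, n = 3 each), with overlap between untreated and TALE libraries and none between untreated and dCas9 libraries. Silenced cells were lower in this ratio by 0.949%, so most of the difference in share was common to the window and the rest of its arm.

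The 19p12 window stood on the other side. Its share was 0.113%, 0.109% and 0.112% in untreated replicates, 0.117%, 0.123% and 0.117% in TALE replicates, and 0.109%, 0.124% and 0.122% in dCas9 replicates. TALE libraries lay above all untreated ones, as in 14.6% of tiles, while dCas9 replicate 1 lay below them all. The silenced mean was higher by 6.65%, by 8.39% without dCas9 replicate 1, and by 3.84% over the members that passed the filter on low counts. The rest of the short arm was higher by 1.04%, with overlap. Within 19p12 the difference was largest from 20 to 21 Mb, where 38 members held 90 to 171 counts per untreated library and 123 to 277 per silenced library. That is 0.00325% to 0.00451% of the counts in untreated and 0.00477% to 0.00662% in silenced libraries, a log2 ratio of 0.55. Of these 38 members, 4 passed the filter on low counts. A peak in any of the 9 libraries made a region, and 6 of them were silenced. Weak members could thus enter through silenced libraries in which they were high, and how much this adds to the sums was not tested. The bin from 23 to 24 Mb, with 89 members of which 21 passed the filter, was also higher in all silenced libraries, at 0.18. Of 1-Mb bins of the genome 2.72% showed such a separation. Of 6 bins of 19q13, all had a ratio below 0, from −0.10 to −0.04, and 3 had no overlap, against 3.67% of bins. Copy number of the chromosome arms in each culture was not measured here, and its part in these shares was not tested.

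Median changes over the tested members went the same ways. For silenced against untreated the median log2 fold change was −0.08 over 554 members of 19q13, of which 36.3% were higher, and −0.07 over 2511 regions of the rest of the long arm. It was 0.10 over 123 members of 19p12, of which 58.5% were higher, and 0.00 over the rest of the short arm, beside −0.01 over all regions tested. The value of 19p12 was 0.05 without TALE replicate 2 and 0.16 without untreated replicate 1. At an unadjusted p under 0.05 there were 3 members higher and 28 lower in 19q13, and 6 higher and 3 lower in 19p12. The rest of the long arm had 36 higher and 115 lower, and the difference between 19q13 and the rest of its arm was not tested. Of the 2964 tested regions of the rest of the short arm, 79 were higher and 60 lower. Over all 105652 regions tested there were 2545 higher and 2613 lower.

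RNA of the genes in the windows was tested next. Of 144 genes that passed the filter, 31 lay in 19p12 and 113 in 19q13, and 0 were called in any contrast by edgeR, where 0.0218%, 0.029%, 0% and 0.0363% of 13786 genes were called in the same order of contrasts as above. For silenced against untreated 17 of the 144 (11.8%) had an unadjusted p under 0.05, against 6.35% of all genes. All 5 such genes of 19p12 were higher, and 10 of the 12 of 19q13 were lower. Over all genes tested there were 876 such genes, of which 371 were higher and 505 lower. The rest of the long arm had 37 such genes (9.54%), of which 30 were lower. The rest of the short arm had 24 (6.22%), of which 16 were higher. Medians took the same directions as in MeDIP, with 0.08 over the 31 genes of 19p12 and −0.10 over the 113 of 19q13. The rest of the short arm had 0.03 (386 genes) and the rest of the long arm −0.06 (388 genes), and all genes 0.00. Of the 19q13 genes 69.9% were lower, and of the rest of the long arm 66.2%.

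By library, the mean log2(CPM + 0.5) of 59 tested zinc finger genes of 19q13, set against the untreated mean, was −0.04, −0.01 and 0.05 in untreated replicates. It was −0.01, −0.08 and −0.12 in TALE and −0.11, −0.15 and −0.14 in dCas9 replicates, so TALE replicate 1 lay among the untreated libraries. For 25 zinc finger genes of 19p12 it was 0.06, −0.01 and −0.05 in untreated, 0.15, 0.14 and 0.15 in TALE, and 0.32, 0.28 and 0.19 in dCas9 replicates, all above the untreated ones. The same quantity over all 13786 tested genes ran from −0.04 to 0.02, but smaller sets varied more. It ran from −0.10 to 0.13 over 344 genes of the rest of the short arm. Over 359 genes of the rest of the long arm it ran from −0.15 to 0.06, and over 42 other genes of 19q13 from −0.11 to 0.12. In these 3 sets the groups overlapped. How often other gene sets of like size separate was not counted. Zinc finger genes share sequence, and whether that moved reads between genes was not tested.

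The lowest p among genes of the windows came from ZNF724P, now named ZNF724, a zinc finger gene of 19p12 at 23 to 24 Mb. Untreated replicates 1, 2 and 3 gave 134, 67 and 46 counts, with 203, 200 and 152 in TALE replicates and 167, 167 and 155 in dCas9 replicates. The counts of all silenced libraries were above those of all untreated ones. For silenced against untreated its log2 fold change of 0.91, with SE 0.189, was not called (edgeR adjusted p 0.0947). With DESeq2 it was called, at 0.91 (adjusted p 0.00680), and also without TALE replicate 3 (edgeR adjusted p 0.0384). Over all alternatives the adjusted p ran from 3.93e-05 to 1.00, the last without untreated replicate 3. Proteins that act with KRAB zinc fingers or on DNA methylation were followed through a list of 26 genes, among them TRIM28, SETDB1, DNMT1, UHRF1 and ATRX. Of these 25 were tested, and 0 were called and 0 had an unadjusted p under 0.05 for silenced against untreated, with a median log2 fold change of 0.09 beside 0.00 for all genes.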

How the data were processed

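MeDIP-seq and RNA-seq libraries, 9 of each, came from 3 groups of K562 cells. The deposited tables hold raw counts per region and per gene. Per the submitters' processing notes, BWA 0.7.5, STAR 2.3.0, Picard, MACS2, bedtools and build hg19 were used, with roles and settings not given in the sources used here. Per the labels' protocols, MeDIP libraries were pooled before capture, and RNA was amplified with a kit for degraded RNA. The authors' peak lists, 1 per library, also hold a score, a fold enrichment ratio and −log10 p and q per peak. Of these, −log10 q was used as a threshold, and the median fold enrichment is given per window.

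Regions with at least 10 counts in enough libraries (filterByExpr) were tested with edgeR 4.0.16 and limma 3.58.1 in R 4.3.3, with TMM factors, all groups in 1 fit and Benjamini-Hochberg adjustment over all 105652 regions or 13786 genes. A call is an adjusted p under 0.05. DESeq2 1.42.0, other factors, filters and left-out libraries were alternatives. Summed shares are given without a test. The fits were tested on simulated data. Genes and exons came from GENCODE v44lift37 on the same build, with a RefSeq table of another build used for older gene names only. Sequence was read from the hg19 reference, and some member sequences are not reported here. CPM of single members and of genes scale counts to a library's total over the regions or genes that passed the filter, times its TMM factor. Summed levels per kb or per CpG and shares were scaled to a library's counts over all regions instead. Python 3.11.15 with pandas 2.3.3 and numpy 2.4.6 did the rest, and matplotlib 3.10.9 the plots.

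Members and lists were chosen with earlier results of these data known. Named regions were, per window, the 5 with the highest level per kb of at least 300 bases, the longest, the shortest, the 2 with most linkers and those at the edges. Per contrast, they were the 2 with the lowest p in each direction. Named genes held most members or were called.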

Additional observations from a re-analysis of the deposited data

How the results depend on the processing

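In 59 alternative results, counting each contrast under each alternative, 0 members were called in MeDIP. The 16 fold changes of members named for low p kept their direction in all 234 values under alternatives, with a lowest adjusted p of 0.545. RNA genes of the windows, 0 called with edgeR, numbered 2 for TALE, 3 for dCas9, 1 for silenced against untreated and 1 for TALE against dCas9 without a filter on low counts. DESeq2 called 1 for dCas9 and 1 for silenced, and leaving out 1 library gave 0 to 1 for silenced, the 1 being ZNF724P without TALE replicate 3. The change in share of 19p12 ranged from 5.61% to 8.39% when 1 library was left out. Over tested regions alone it was 3.84%, and for both windows −4.14% in place of −3.28%. Set against the rest of the same arm, an alternative chosen after seeing the data, as was the level per CpG, the change of 19q13 was −0.949%. The level per kb against all other regions of chromosomes 1 to 22 and X turned to 1.12 for both windows and 1.25 for 19q13. The peak ratio of 19p12 was 0.730 at −log10 q of at least 5. The other ratios kept their direction in every alternative run. No pairing by replicate number was seen, though low counts limit this check and it cannot exclude one. Correlations of same-numbered deviations ran from −0.00475 to 0.00399 in MeDIP and from −0.284 to 0.103 in RNA. Between different numbers they ran from −0.00815 to 0.00874 and from −0.136 to 0.249. With a replicate block, 0 members and 0 window genes were called, and the shares changed by −3.28%, 6.72% and −5.06% for both windows, 19p12 and 19q13. The median of 19p12 moved most, and many of its members had too few counts to be tested.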
